A study of Sus scrofa with 3 samples.

Results

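CG methylation of liver DNA was compared between Enshi black pig, a Chinese domestic breed, and Chinese wild boar, at the autosomal CG sites and regions that the authors listed as differing between them. All rows on chromosomes 1 to 18 were kept, with no filter on the authors' statistics. This left 7829 of the 9365 regions and 26684 of the 32226 sites of this comparison, out of 25044 regions and 89093 sites in the 3 breed comparisons of the series, the third breed being Large White pig. All animals were male and 90 days of age, and the labels name no treatment. The labels name 3 pigs and 1 bisulfite-sequenced methylome per breed, and do not say whether a methylome was made from 1 pig or from a pool. Breed and animal therefore cannot be told apart, no test between breeds was made, and every value below describes these methylomes. The tissue is as labelled, and was not checked against liver markers here.

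In mammals, DNA is methylated mainly at cytosines followed by guanine (CG). Most of the genome carries methylation at nearly every CG of nearly every cell, while CG-rich promoters and active enhancers are often free of it. After bisulfite treatment, cytosines without a methyl group are sequenced as thymine, so the methylation level is the share of reads that still show cytosine. In a whole tissue, an intermediate level can come from a mixture of cell types, of cells of one type or of the alleles of one cell, and these cannot be told apart here. Each listed row held a level for both breeds as the authors estimated it, and the read depth behind it is unknown. Some exact levels recurred at separate places of the genome, as given below. Rows were listed because the breeds differed there, so the presence of a difference is not a result. Levels changed little from a listed site to the next. Among 14376 neighbouring pairs at most 50 bp apart, the median step was 0 percentage points in both breeds and 90% of steps were within 1.02 points in Enshi black pig. Sites of a cluster are therefore not separate measurements. The level columns carry numbers, and their breeds were read from the order of the codes that name the table, which the labels attach to the Large White sample. At 6448 sites also listed against Large White pig, the level read as Enshi black pig differed by a median of 0.0276 points from its level in that table. The level read as Chinese wild boar differed by a median of 0.018 points at 4079 sites also listed against Large White pig.

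Enshi black pig had the lower level in a majority of the listed regions and sites. It was lower in 4295 regions (54.9%, 95% exact binomial interval 53.7% to 56.0%) and higher in 3534 (45.1%). Of the sites, 15018 (56.3%, 55.7% to 56.9%) were lower and 11666 higher. These intervals, and all those below, cover counting only, and they are too narrow where neighbours share a direction. Weighted by CG number, the level over the 102506 CG of the listed regions was 59.7% in Enshi black pig against 62.2% in Chinese wild boar. The regions covered 1945 kb. In the other comparisons, which share a methylome with this one, the first breed was lower in 54.4% of 7325 regions (Enshi black pig against Large White pig) and in 50.98% of 5434 (Large White pig against Chinese wild boar).

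In the regions lower in Enshi black pig, the median level was 49.8% in this breed (quartiles 36.4% and 61.3%) and 89.6% in Chinese wild boar (76.2% and 96.0%). In the regions higher in Enshi black pig, the median was 83.7% (67.7% and 93.3%) against 44.7% in Chinese wild boar (31.2% and 56.5%). The upper member of the pair exceeded 90% in 48.9% of the lower regions and in 35.3% of the higher ones. Thus a level over 90% was more frequent where Chinese wild boar was the higher breed. The medians of the upper and of the partial level were both higher there, at 89.6% against 83.7% and at 49.8% against 44.7%. At single sites the pairs lay farther apart, but sites and regions were listed at unlike limits. No listed site differed by less than 28.3 points, while regions were listed down to 0.0245 points. The lower sites had medians of 30.8% in Enshi black pig against 93.5% in Chinese wild boar, and the higher sites 90.8% and 28.9%.

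**Figure D1:**
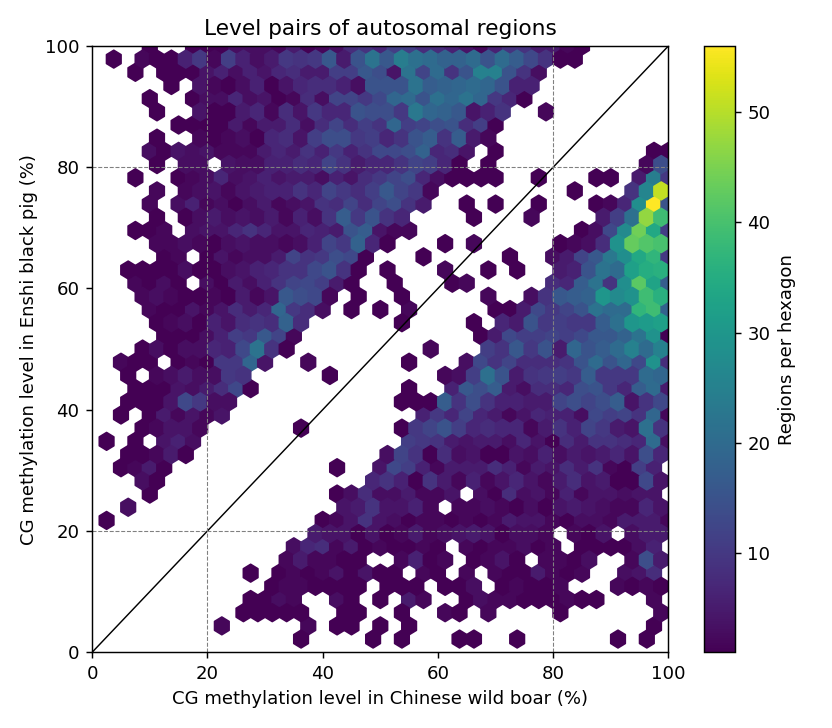
Methylation level (%) of the 7829 autosomal regions in Chinese wild boar (x axis) and Enshi black pig (y axis). The colour of a hexagon is its number of regions, the diagonal marks equal levels and dashed lines the limits of 20% and 80%. The densest hexagons lie below the diagonal at a level over 80% in Chinese wild boar, and the corner pairs, low in one breed and high in the other, are sparse.

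Levels were divided into low (under 20%), intermediate (20% to 80%) and high (over 80%). Of the regions, 2903 (37.1%) were intermediate in Enshi black pig and high in Chinese wild boar, and 1945 (24.8%) were high in Enshi black pig and intermediate in Chinese wild boar. A further 2322 regions (29.7%) were intermediate in both breeds. Among these the direction was the opposite of the whole list, with 1053 lower and 1269 higher in Enshi black pig. Changes from a low to a high level were rare in regions, with 99 (1.26%) low in Enshi black pig and high in Chinese wild boar and 67 (0.856%) the other way. At sites, which were listed only at differences of 28.3 points or more, the corresponding shares were 9.87% (2633 sites) and 7.24% (1933 sites). A low level was paired with an intermediate one in 226 regions with Enshi black pig low and in 245 with Chinese wild boar low. No region was low in both breeds and 22 were high in both.

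The widest differences were in short blocks of CG, with one breed above 93% and the other at 24.0% or less. Among regions of at least 10 CG, the widest one with the lower level in Enshi black pig was chr1:142820096-142820381 (Sscrofa10.2), with 15 CG in 286 bp, at 4.66% in Enshi black pig against 98.1% in Chinese wild boar. All 15 of its CG were also listed as sites, at 4.49% to 4.69% and 97.8% to 98.2%. These nearly equal levels are not separate measurements of each CG. Against Large White pig the same interval was listed with Enshi black pig at 4.71% and Large White pig at 84.6%. The next was chr6:49653320-49653611, with 14 CG at 5.94% and 97.8%. There Large White pig was listed at 16.4% against 97.8% in Chinese wild boar. The third breed thus stood near Chinese wild boar in the first block and near Enshi black pig in the second. The remaining 3 were chr1:19913101-19913313 (14 CG, 15.3% and 99.1%), chr5:14908019-14908211 (17 CG, 10.9% and 94.0%) and chr15:65384240-65384390 (10 CG, 14.6% and 96.2%). For the blocks on chromosomes 1 and 15, Large White pig was listed at 85.4% and 94.3% in overlapping regions.

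In the other direction, the widest was chr17:31315759-31316115, with 36 CG in 357 bp at 96.1% in Enshi black pig against 8.57% in Chinese wild boar. All 36 CG were listed as sites, with Chinese wild boar at 6.97% to 11.2%. Neither of the other comparisons listed a region there, so the level of Large White pig in this block is not known here. It was followed by chr11:4929349-4929567 (13 CG, 96.4% and 17.3%), where Large White pig stood between the other breeds, at 56.4% against Enshi black pig and 57.3% against Chinese wild boar in longer overlapping regions. The last 3 were chr3:138871921-138872205 (12 CG, 96.4% and 19.8%), chr5:9759202-9759538 (10 CG, 93.2% and 18.1%) and chr6:25553608-25553852 (19 CG, 98.8% and 24.0%). On chromosome 5 Large White pig was listed at 97.9% over the same interval, beside Enshi black pig. Large White pig was thus near Enshi black pig in one of these blocks and between the breeds in another. The widest single sites were a CG at 266841110 on chromosome 1, at 1.13% in Enshi black pig against 99.7% in Chinese wild boar, and a CG at 94281092 on chromosome 15, at 99.6% and 1.69%. None of the 5 widest sites in either direction lay in a listed region.

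The largest blocks by CG number had smaller differences. After the region on chromosome 4 described below, most CG were held by chr18:54978573-54979579, with 132 CG in 1007 bp at 41.97% in Enshi black pig against 76.1% in Chinese wild boar. Of these, 71 were listed as sites, from 214 bp before the centre of the block to 288 bp after it. Both breeds were lower at the last listed site than at the first. Enshi black pig lay between 56.3% and 11.9% and Chinese wild boar between 93.4% and 50.9%. Enshi black pig was the lower breed at every listed site, and the gap between the breeds was not constant along these sites. The outer parts of the block held no listed site. The other 3 were higher in Enshi black pig. They were chr12:20633906-20634541 (120 CG, 49.5% and 20.8%), chr10:29290030-29290753 (113 CG, 75.1% and 39.4%) and chr2:92317741-92318721 (108 CG, 51.3% and 21.9%). Over chr12:20633853-20634555, which spans the first of these, Large White pig was listed at 62.2% and Chinese wild boar at 21.0%. The block with most CG among those intermediate in Enshi black pig and high in Chinese wild boar was chr2:3507411-3508115, with 89 CG at 32.9% and 87.5%, of which 84 were listed as sites. It had the most listed sites of all regions. In the rarer pairs, most CG were held by chr7:103428112-103428304 (24 CG, 16.0% in Enshi black pig against 94.2% in Chinese wild boar) and by chr9:8483431-8483860 (37 CG, 83.3% and 17.6%). The largest region high in Enshi black pig and intermediate in Chinese wild boar, chr12:63392006-63392711 (92 CG, 84.2% and 56.0%), and the largest with the low level in Chinese wild boar and the intermediate one in Enshi black pig, chr17:66352454-66352917 (79 CG, 31.3% and 8.55%), had differences of 28.2 and 22.7 points. The counterpart of the latter with the low level in Enshi black pig was chr1:302142411-302143128 (82 CG, 16.2% and 36.5%). The largest region high in both breeds was chr2:44725275-44725605 (47 CG, 80.5% and 98.9%).

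A listed region was usually short, with a median length of 177 bp (quartiles 100 and 282, range 51 to 5203) and a median of 8 CG (5 and 15, range 4 to 161). The median density was 5.71 CG per 100 bp (3.55 and 8.72). Regions lower in Enshi black pig were slightly longer and sparser, with medians of 185 bp and 5.46 CG per 100 bp, against 167 bp and 6.06 in those higher. The difference between levels had a median of 32.4 points. It was over 70 points in 215 regions and under 10 points in 33. Side by side, the median region had 177 bp and 5.48 CG per 100 bp in Enshi black pig against Large White pig, and 164 bp and 6.17 in Large White pig against Chinese wild boar.

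Direction and width both varied with CG density. Among the 688 regions of at most 2 CG per 100 bp, 59.2% (55.4% to 62.9%) were lower in Enshi black pig. The share was 57.5% and 57.6% up to 4 and 6 CG per 100 bp, 53.5% and 53.0% up to 8 and 10, 47.9% (44.8% to 50.97%) in the 1044 regions of 10 to 15, and 50.8% (45.6% to 56.1%) in the 364 regions above 15. In sparse regions Enshi black pig was thus lower more often than higher, and in the densest classes the intervals held an even split. The median difference went from 44.8 points in the sparsest class to 20.7 in the densest, and the share of regions intermediate in both breeds from 21.1% to 69.0%. Median levels in the sparsest class were 57.0% in Enshi black pig against 72.1% in Chinese wild boar, and in the class of 8 to 10 they were 65.4% and 65.1%. Among the listed regions, dense ones therefore held smaller differences, more often between 2 intermediate levels, than sparse ones did. Dense regions also had more CG, with a median of 23 in the densest class against 5 in the sparsest. The median difference was 40.5 points in regions of up to 5 CG and 25.2 in those of over 49. The parts of density, of CG number and of the authors' limits of listing in this pattern were not tested. The densest regions of at least 10 CG were chr1:183919335-183919398, with 22 CG in 64 bp at 52.0% and 70.6%, and chr6:44478248-44478328, with 22 CG in 81 bp at 57.8% and 36.6%. The 3 next, on chromosomes 13, 3 and 2, also differed by less than 30 points, and none of the 5 held a listed site. By length, the share lower was highest between 200 and 300 bp, at 60.4% of 1695 regions (58.0% to 62.8%), against 49.3% of 1049 regions of at most 75 bp. It was 49.4% (44.3% to 54.4%) of 391 regions from 500 to 1000 bp and 58.4% (50.4% to 66.1%) of 161 longer ones. The share thus did not rise steadily with length.

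**Figure D2:**
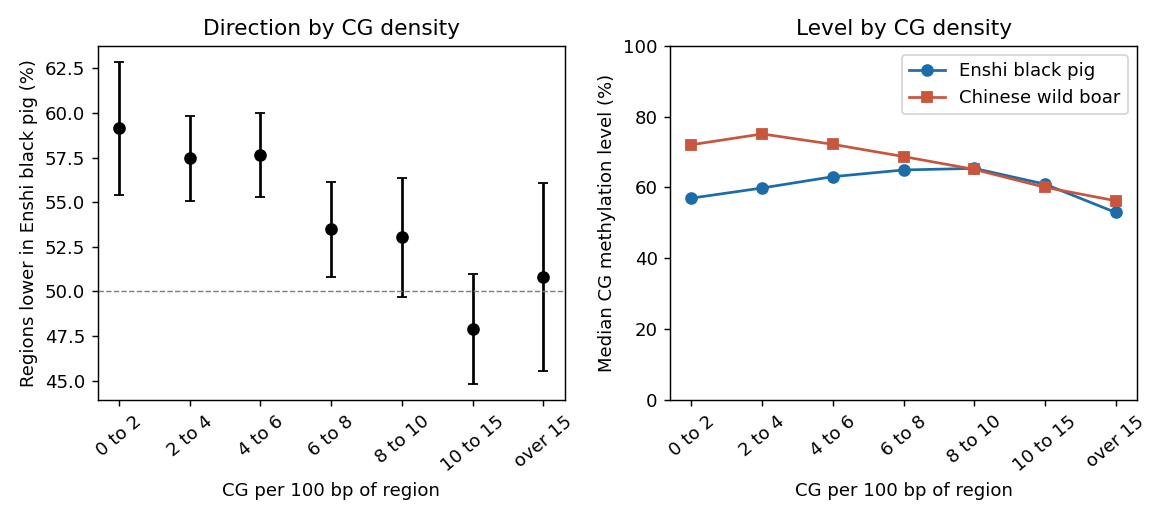
Share of regions lower in Enshi black pig (left, %, with 95% exact binomial intervals and a dashed line at an even split) and median methylation level of both breeds (right, %) by CG per 100 bp of region. The share goes from 59.2% in the sparsest class to 47.9% at 10 to 15 CG per 100 bp, and the median levels of the breeds, 57.0% and 72.1% in the sparsest class, meet at 8 to 10. The left axis does not start at 0.

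Regions with and without a listed site differed in width and CG density. Of the listed sites, 16647 (62.4%) lay inside listed regions, where the median difference was 50.4 points, against 65.5 points at the 10037 outside. Only 2798 regions (35.7%) held a listed site. Their median difference was 47.2 points at 4.55 CG per 100 bp, and 57.8% were lower in Enshi black pig. The 5031 regions with none had a median difference of 26.7 points at 6.58 CG per 100 bp, and 53.2% were lower. Regions without a site were thus denser and differed less, although they made up most of the list. All listed sites differed by 28.3 points or more, so a region with a smaller difference could seldom hold one. The contrast in width between regions with and without a site therefore follows in part from how sites were listed.

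A few regions held listed sites in both directions. The region with most CG of the list, chr4:137583442-137585341, had 161 CG in 1900 bp and nearly equal mean levels, 67.04% in Enshi black pig against 67.06% in Chinese wild boar. It held 24 sites lower in Enshi black pig, from 137583797 to 137584001, at 44.3% to 54.9% against 81.5% to 88.9% in Chinese wild boar. After 934 bp without a listed site came 39 sites higher in Enshi black pig, from 137584935 to 137585151, at 75.7% to 79.4% against 33.8% to 43.7%. The breed with the higher level thus changed from one side of the block to the other. In the other comparisons Large White pig was listed at 74.2% against 51.9% in Enshi black pig over chr4:137583727-137584001, and at 80.2% against 45.6% in Chinese wild boar over chr4:137583948-137585447. It thus stood above the other breed in both of these intervals. The second interval starts within the first group of sites, so it does not give the level of the second group alone. Enshi black pig against Large White pig had 2 overlapping regions here, and the other is not described.

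Such changes of direction were found in 17 of the 2155 regions with at least 2 listed sites (0.789%), each with 1 change. These 17 regions had a median length of 1002 bp and a minimum of 467 bp, and 8 of them had at least 10 CG. Neighbouring listed sites at most 200 bp apart always shared a direction, so short regions could not hold a change. The share among long regions alone was not counted. In chr14:8090429-8091183, with 26 CG that were all listed as sites, 16 stood at 96.6% in Enshi black pig against 37.8% in Chinese wild boar, and the next 10, after 440 bp, at 18.95% and 97.6%. In chr7:22845092-22847618, 7 sites at 84.7% to 87.4% against 48.2% to 50.5% were followed after 2116 bp by 6 at 44.5% to 67.5% against 99.2% to 99.4%. In chr1:290347879-290352671, which was among the longest and sparsest regions, 5 sites at 15.1% against 96.6% were followed by 5 at 87.7% to 91.8% against 15.7% to 26.8%. The exact pair of the first group, 15.0584% and 96.6143%, was also listed for another region of chromosome 1, of 5 CG in 89 bp. The level of 18.952% on chromosome 14 recurred at 5 sites of chr8:46522437-46525453. Such levels may not be separate measurements, and why they recur was not tested. Both orders, with Enshi black pig lower first or higher first, occurred. Of the 33 regions with mean levels within 10 points, 5 held both directions and 12 held no listed site.

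**Figure D3:**
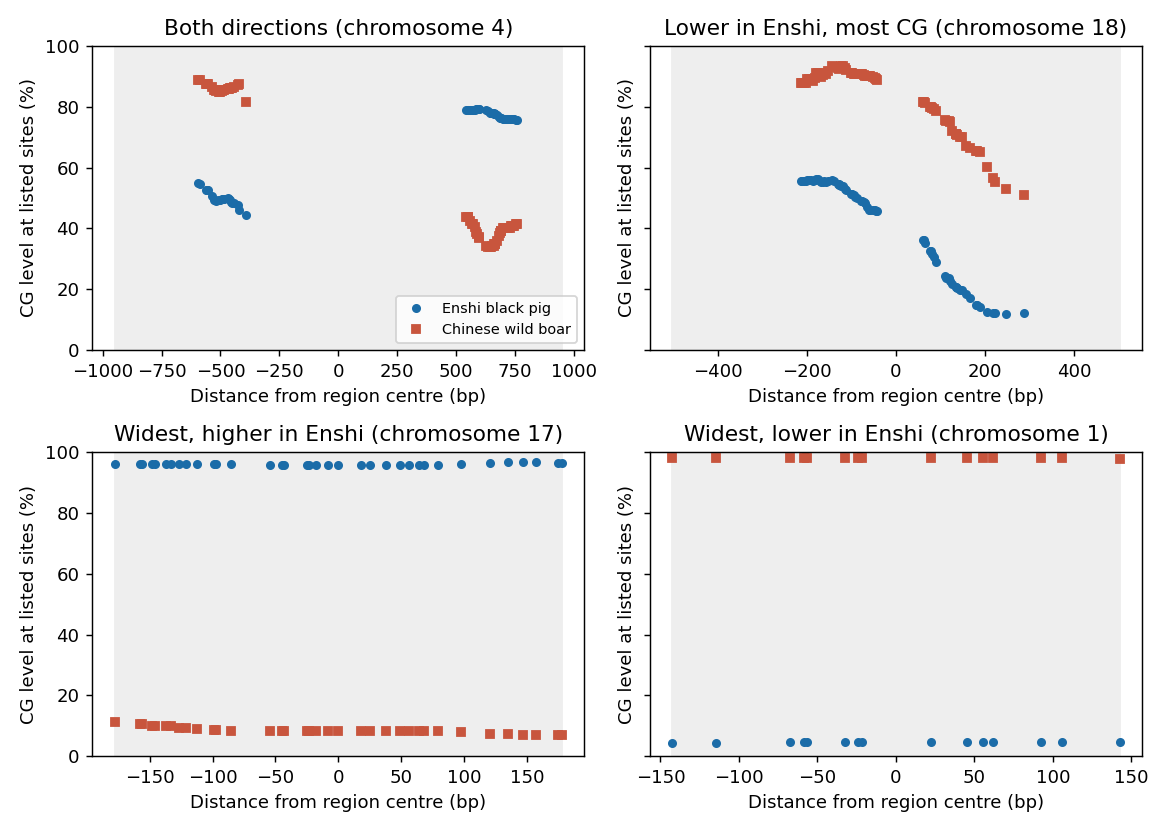
Methylation level (%) of listed CG sites in Enshi black pig (blue circles) and Chinese wild boar (red squares) against distance from the centre of the region (bp) in 4 regions, with the extent of each region in grey. The breeds exchange places across the region on chromosome 4. In that on chromosome 18 both are lower at the last listed site than at the first, with Enshi black pig lower at every listed site. Levels stay near 96% against 9% and near 5% against 98% in the widest regions on chromosomes 17 and 1.

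The longest regions had few CG for their length, as counted by the authors. The genome sequence was not used, so CG without usable reads cannot be told from absent ones. The longest, chr3:122465775-122470977, had 13 CG in 5203 bp, at 46.9% in Enshi black pig against 86.8% in Chinese wild boar. The comparison with Large White pig listed its last part, chr3:122470493-122470977, as a region of 12 CG at 50.7% in Enshi black pig. The length of such a region says little about how much DNA was measured. The others were chr8:2136435-2141506 (6 CG, 86.8% and 58.3%), chr8:51694179-51699061 (4 CG, 81.5% and 62.7%), the region on chromosome 1 above and chr5:16978683-16983444 (16 CG, 57.9% and 97.9%). Among regions of at least 10 CG the sparsest were chr15:25626640-25631351, with 10 CG at 64.3% and 72.0%, and chr1:118506349-118510793, with 10 CG at 61.8% and 93.0%. The latter lies within chr1:118506297-118511138, which was listed with 35 CG for Large White pig against Chinese wild boar. Another sparse region, chr5:17373891-17378206, had 12 CG at 37.5% and 96.6%.

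Listed regions were spread over nearly the whole genome, with local groups. Of 2458 windows of 1 Mb, 2149 held a region and 309 none, while 97 windows held at least 10 regions and 14.9% of all regions. The median gap to the next region was 155 kb, the shortest 50 bp and the longest 4.50 Mb. The next region lay within 1 kb for 4.33% of the regions, within 10 kb for 11.1% and within 100 kb for 39.1%. The other comparisons had median gaps of 169 kb (Enshi black pig against Large White pig) and 208 kb (Large White pig against Chinese wild boar), with fewer regions each.

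Direction was shared by the closest neighbours and little beyond them. Of 213 neighbouring pairs at most 200 bp apart, 95.8% (92.1% to 98.0%) had the same direction. Neighbouring listed sites 50 to 200 bp apart had a median step of 0 points in both breeds, and all 2291 pairs shared a direction. Levels were thus alike over this distance as listed, and the agreement of the closest regions is not a separate result. The share was 58.9% (45.0% to 71.9%) of 56 pairs from 200 to 500 bp and 52.2% (39.8% to 64.4%) of 69 pairs from 500 bp to 1 kb. It was 64.3% (51.9% to 75.4%) of 70 pairs from 1 to 2 kb, 55.4% (53.3% to 57.5%) of 2185 pairs from 10 to 100 kb and 51.4% (49.9% to 52.9%) of 4232 pairs from 100 kb to 1 Mb. The closest pairs stood apart from all other classes, and the interval from 10 to 100 kb lay above that from 100 kb to 1 Mb, while the wide intervals from 200 bp to 2 kb overlapped one another. Over all 7811 pairs the share was 54.2%.

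**Figure D4:**
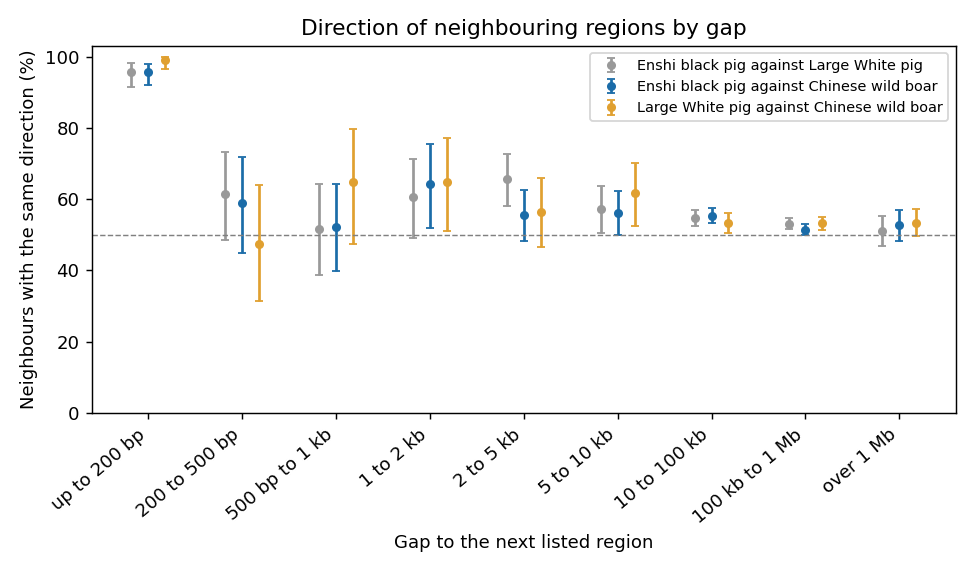
Share of neighbouring regions with the same direction (%, with 95% exact binomial intervals) by the gap between them, for each of the 3 breed comparisons; the dashed line is an even split. For Enshi black pig against Chinese wild boar, 95.8% of pairs at most 200 bp apart have the same direction, and the classes beyond lie between 51.4% and 64.3%. Neighbouring listed sites at most 200 bp apart always share a direction, so the agreement of the closest regions is not a separate result.

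The densest window, 86 to 87 Mb of chromosome 16, held 24 regions in mixed directions, 13 lower in Enshi black pig and 11 higher. Of these, 21 lay within 292 kb, from 86194750 to 86486463. Regions of both directions were interleaved there. chr16:86203359-86203513 had 8 CG at 96.0% in Enshi black pig against 25.8% in Chinese wild boar, and chr16:86236750-86236975 had 8 CG at 39.995% and 88.9%. Farther along, chr16:86416166-86416322 had 6 CG at 14.6% and 77.5%, and chr16:86472796-86472961 had 9 CG at 94.7% and 46.1%. The window from 22 to 23 Mb of chromosome 7 held 20 regions, 11 lower and 9 higher. Among them were chr7:22707488-22707756 (18 CG, 69.2% and 7.79%) and, about 3 kb farther, chr7:22710955-22711164 (8 CG, 31.5% and 90.9%). The window from 42 to 43 Mb of chromosome 12 held 19 regions, 8 lower and 11 higher, but 94 of its 98 listed sites were lower. Of these, 55 lay in chr12:42239210-42239868 (64 CG, 31.9% and 77.8%), 14 in chr12:42059490-42059917 (43 CG, 15.9% and 46.1%) and 11 in chr12:42240071-42240341 (34 CG, 11.9% and 51.7%). A count of sites was here set by a few CG-rich regions.

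The windows with most listed sites, which were picked by that count, had sites of nearly 1 direction. They held 5 to 8 regions with 142 to 204 CG. Sites of a cluster are not separate measurements, so these counts do not describe a window as a whole. Which regions held the sites is not given here. On chromosome 10, the window from 21 to 22 Mb held 117 sites, 116 of them lower in Enshi black pig, and 8 regions. The window from 28 to 29 Mb of the same chromosome held 109 sites, 108 of them higher, and 5 regions, all higher. On chromosome 4, 111 of 113 sites from 72 to 73 Mb were lower, while its 5 regions were 3 lower and 2 higher.

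Long runs of neighbouring regions in 1 direction were found mainly for lower levels in Enshi black pig. There were 21 runs of at least 10 regions lower and 2 of at least 10 higher, in 1794 and 1798 runs. Of all regions, 54.9% were lower and 45.1% higher, and unequal shares alone make long runs more frequent in the commoner direction. Whether the runs exceeded this was not tested. The longest had 16 regions. One ran from 277821328 to 283441276 on chromosome 1, over 5.62 Mb, with levels of 13.1% to 67.5% in Enshi black pig against 31.6% to 98.8% in Chinese wild boar. Its widest member was chr1:282748881-282748983 (6 CG, 23.5% and 87.5%). The other ran from 114156361 to 116942654 on chromosome 7, over 2.79 Mb, with medians of 55.6% and 95.1%. It included chr7:116514310-116514707 (16 CG, 44.3% and 99.3%) and chr7:116765916-116766329 (68 CG, 49.9% and 72.8%). In both runs, Chinese wild boar stood over 80% in most regions. This was also so for all regions lower in Enshi black pig, where its median was 89.6%. The longest run of higher levels had 12 regions over 1.33 Mb at the last listed positions of chromosome 13, from 217295475 to 218628126, with medians of 82.5% in Enshi black pig against 57.7% in Chinese wild boar. Its widest member was chr13:218368159-218368376 (19 CG, 80.5% and 38.0%).

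All 18 autosomes had more regions lower than higher in Enshi black pig, from 51.8% of 396 on chromosome 13 to 62.6% of 227 on chromosome 16. The 95% interval was 46.7% to 56.8% for chromosome 13 and 55.9% to 68.9% for chromosome 16, so that most neighbouring chromosomes in this order cannot be ranked. Sites were mostly lower on 17 chromosomes and evenly split on chromosome 18, with 436 of 872. Chromosome 4 had 57.3% of regions but 68.5% of sites lower. Counted to the last listed position, regions were most frequent on chromosome 12 (6.18 per Mb), chromosome 18 (4.76) and chromosome 10 (4.55), and least on chromosome 13 (1.81) and chromosome 1 (2.21). Chromosome 12 also had the densest regions, with a median of 6.95 CG per 100 bp. In the other comparisons chromosome 12 held 5.17 and 4.51 regions per Mb and chromosome 13 held 1.52 and 1.44. The number of CG sites per chromosome and their coverage were not used here, and their part in these frequencies was not tested.

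In bins of 10 Mb, the share of regions lower varied on both sides of an even split. Part of this spread comes from the small number of regions in a bin. Of 253 bins with a region, 177 held at least 20, and 120 of these (67.8%) had most regions lower in Enshi black pig. The share lower had a median of 56.0% and an SD of 11.4 points over bins, from 24.0% to 82.6%. It was 70% or more in 15 bins and 30% or less in 3. The interval of a bin lay above an even split in 21 bins and below it in 8, together 16.4%. Sites fell on the same side as regions in 128 bins. The other comparisons, which share a methylome with this one, had 66.9% of 175 bins (Enshi black pig against Large White pig) and 45.8% of 107 bins (Large White pig against Chinese wild boar) mostly lower in the first breed.

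The lowest share was in the bin from 110 to 120 Mb of chromosome 14, where 6 of 25 regions were lower (24.0%, 9.36% to 45.1%), with 14 of 94 sites. Its largest group of sites was in chr14:117939251-117939823 (77 CG), at 46.2% in Enshi black pig against 16.0% in Chinese wild boar, with 20 sites that were all higher. The bin from 140 to 150 Mb of chromosome 4 had 7 of 26 regions lower (26.9%) but 89 of 97 sites. Of these sites, 50 lay in chr4:141914551-141915496 (75 CG, 40.7% and 82.1%) and 37 in chr4:141843353-141844687 (42 CG, 16.5% and 56.4%), so that 2 regions set the count of sites against the other regions of the bin. In the first 10 Mb of chromosome 13, 9 of 32 regions (28.1%) and 58 of 168 sites were lower, and chr13:2991016-2991677 (43 CG, 95.4% and 49.8%) held 34 of the higher sites.

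The highest share was in the bin from 190 to 200 Mb of chromosome 13, where 19 of 23 regions (82.6%, 61.2% to 95.05%) and 81 of 108 sites were lower. It held chr13:197098439-197098659 (7 CG, 39.9% and 91.1%). The same chromosome thus had a bin among the 3 lowest and one among the 3 highest. The bin from 100 to 110 Mb of chromosome 5 followed, with 23 of 28 regions (82.1%) and 59 of 85 sites lower, among them chr5:107485616-107485833 (13 CG, 29.6% and 94.5%). In the first 10 Mb of chromosome 16, 25 of 32 regions (78.1%) and 93 of 124 sites were lower, with 11 of the sites in chr16:6158800-6159150 (23 CG, 15.7% and 53.7%). The median density of a bin's regions was 7.39, 8.24 and 5.09 CG per 100 bp in the 3 bins with the lowest shares and 3.64, 4.42 and 4.76 in those with the highest. The part of density in the direction of a bin was not tested.

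**Figure D5:**
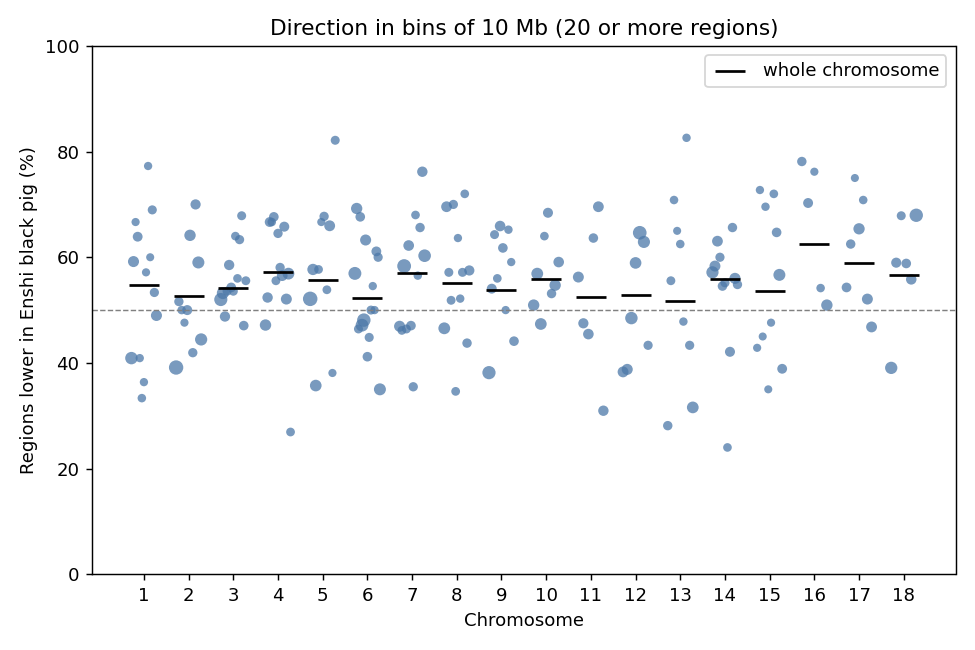
Share of regions lower in Enshi black pig (%) in bins of 10 Mb with at least 20 regions, by chromosome; each point is a bin, in order of position, with larger points for more regions, black bars are whole chromosomes and the dashed line is an even split. Bins range from 24.0% on chromosome 14 to 82.6% on chromosome 13, while whole chromosomes lie between 51.8% and 62.6%.

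Regions were more frequent near the chromosome ends, and there the direction of regions differed from that of the interior. The distance classes were chosen after the values were seen. Within 2 Mb of position 1 or of the last listed position of a chromosome there were 6.69 regions per Mb, then 5.92 from 2 to 5 Mb, 4.92 from 5 to 10 Mb, 4.03 from 10 to 20 Mb and 2.53 beyond 20 Mb. The share lower in Enshi black pig was 44.0% (39.5% to 48.5%) of 482 regions in the outer 2 Mb, 50.1% and 51.02% in the next classes, 56.8% from 10 to 20 Mb and 56.9% (55.4% to 58.4%) of 4371 regions beyond 20 Mb. Median levels were 66.3% in Enshi black pig against 63.0% in Chinese wild boar in the outer 2 Mb, and 60.1% and 67.7% beyond 20 Mb. Without chromosome 13, whose ends had 4 of 30 regions lower, the shares were 46.0% and 56.7%. Sites did not show the same split, with 52.0% (49.2% to 54.8%) of 1261 lower in the outer 2 Mb and 57.7% of 16271 beyond 20 Mb. Regions were denser in the outer 2 Mb (median 6.58 CG per 100 bp, against 5.6 beyond 20 Mb). Within regions over 6 CG per 100 bp the share lower was 37.7% of 268 in the outer 2 Mb and 53.3% of 2006 beyond 20 Mb, and within sparser regions 51.9% of 214 and 59.9% of 2365. In the other comparisons the first breed was lower in 49.4% (Enshi black pig against Large White pig) and 43.9% (Large White pig against Chinese wild boar) of the regions in the outer 2 Mb, and in 55.8% and 53.0% beyond 20 Mb.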

How the data were processed

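Genomic DNA of liver was bisulfite-treated and sequenced by the authors, with 1 methylome for each of 3 pig breeds. Bismark 0.15.0 and the genome build Sscrofa10.2 are named in the submitters' processing notes. The listing software, its thresholds and the read depth were not given in the sources used here. For each site and region, the authors deposited a methylation level per breed as a fraction, with the CG number and length of regions. Their columns of differences, standard errors, dispersions, test statistics, posterior probabilities, p-values and false discovery rates were not used.

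Fractions were multiplied to percent with Python 3.11.15, numpy 2.4.6 and pandas 2.3.3. Density is the CG number given by the authors per 100 bp of length, and was not checked against the genome sequence. Shares have exact (Clopper-Pearson) 95% intervals from scipy 1.17.1, and figures were drawn with matplotlib 3.10.9. The steps were tested on simulated data. Named regions were, by rule, the widest, longest, densest, sparsest and those with most CG, with 5 in each group, the region with most CG in each pair of level classes, the 3 windows of 1 Mb with most regions, the longest run in each direction (a tie names both) and the 3 bins of 10 Mb at each extreme. The 5 widest and the sparsest and densest were taken among regions of at least 10 CG. The windows with most sites, the regions with both directions, the regions that hold the sites of a bin or window and the distances from chromosome ends were named after their values were seen. The members, lists and descriptions were chosen with earlier results of these data known. Alternatives changed the minimum CG number, length and difference, the class limits, the joining of neighbours and the bins. Neither genome sequence nor gene models of the build Sscrofa10.2 were used, so regions have no gene names or sequences here.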

Additional observations from a re-analysis of the deposited data

Results flagged for a closer look

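Values outside the autosomes were not used in the report. On chromosome X, 694 regions and 2286 sites were listed, and Enshi black pig was lower in 45.1% (95% exact binomial interval 41.4% to 48.9%) of the regions and in 44.9% of the sites. On 649 unplaced scaffolds, 842 regions and 3256 sites were listed, with 53.7% (50.2% to 57.1%) of the regions and 57.6% of the sites lower. They drew attention as signal outside the values compared, and the difference between X and the autosomes was not tested.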

How the results depend on the processing

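Each alternative changed 1 choice, and 46 alternatives were run on 16 results. Of these, 17 values stayed within the main 95% interval or within 1.5 times a count, 28 moved farther and 1 reversed. The reversed value was the share lower in Enshi black pig in the outer 2 Mb of chromosomes, an alternative added after the data were seen, which was 44.0% of regions and 52.0% of sites. The share of regions lower was 57.5% for regions of at least 200 bp and 53.3% of CG in place of regions, and the share of sites lower was 57.3% with 1 site per 500 bp. With limits of 25% and 75%, the share of regions high in Enshi black pig and intermediate in Chinese wild boar was 26.7%, intermediate in both 20.1%, low in Enshi black pig and high in Chinese wild boar 2.40% and the reverse 1.92%. With limits of 10% and 90%, the shares were 26.7% for intermediate in Enshi black pig and high in Chinese wild boar, 15.9% for the reverse, 55.9% for intermediate in both, 0.102% for low and high and 0.0766% for high and low. For regions of at least 10 CG, in the same order, they were 32.4%, 19.1%, 40.9%, 0.636% and 0.272%. Median length, CG number and density were 184 bp, 6 and 3.85 CG per 100 bp for differences of at least 40 points, and 254 bp, 17 and 7.95 for at least 10 CG. The next region lay within 10 kb for 7.07% of regions joined within 1 kb and for 7.12% of those of at least 10 CG. Neighbouring regions shared a direction in 53.1% of pairs when joined within 1 kb and in 52.8% at 10 CG or more. In bins of 5 Mb, 58.9% were mostly lower. On a grid shifted by 5 Mb, the share lower ranged from 23.8% to 86.7% over 180 bins. These changes follow from which regions, limits or bins each alternative keeps.

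The depth behind each level is unknown, no limit of detection is given, and only rows listed as differing were used. No paired analysis was possible because there was 1 methylome for a breed and the labels give no replicate numbers. No replicate was left out for the same reason.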

Other observations

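Chromosome ends did not all have the same direction. Of the 23 ends with at least 10 regions in their outer 2 Mb, 15 had most regions higher in Enshi black pig, 7 had most lower and 1 was even. The last 2 Mb of chromosome 13 had 3 of 23 regions lower and those of chromosome 11 had 2 of 13, while the first 2 Mb of chromosome 16 had 9 of 10 lower. Both kinds of end had similar shares lower, 44.7% of 255 regions at the first ends and 43.2% of 227 at the last ends. These values were looked at after the shares by distance were seen.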
